A study of Mus musculus with 25 samples.

Results

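The 55 genes described here encode the machinery that condenses chromosomes, attaches them to the mitotic spindle, separates them and divides the cell. They were chosen by function from the chromosome, kinetochore, checkpoint, spindle and cytokinesis genes of the late cell cycle, leaving aside cyclins and their kinases. Each of the 55 matched 1 of the 56980 genes in the deposited count table. By role they fall into 2 general proliferation and chromosome genes, 5 condensin subunits, 8 centromere and kinetochore genes, 4 spindle checkpoint genes, 4 genes of sister chromatid cohesion and its release, 4 genes of the chromosomal passenger complex, 4 other mitotic kinases, 4 genes grouped under mitotic exit, 5 spindle motors, 7 spindle assembly genes and 8 cytokinesis genes.

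Poly-A RNA was sequenced from whole livers of 25 mice, males of the C57BL/6J strain aged 8 weeks at the start of the diets, which lasted 12 weeks. The FAT-MASH regimen, a model of metabolic dysfunction-associated steatohepatitis, combined a chow high in fat, sucrose and cholesterol with fructose and glucose in the water and a weekly intraperitoneal dose of carbon tetrachloride, a liver toxin. Mannose, a hexose sugar, was added to the water of FAT-MASH mice at 20% or 5%, either over all 12 weeks (called prevention) or in the last 6 weeks (called therapy), and these 4 groups were set against FAT-MASH mice without mannose. Mice on normal chow drank water with 20%, 5% or no mannose over 12 weeks. The first batch held 18 libraries in 6 groups of 3, namely the 5 FAT-MASH groups and normal diet without mannose. The second batch held 7 libraries from normal-diet mice, 3 with 20% mannose, 2 with 5% and 2 without. The labels give no injections for the normal-diet mice, so that chow, sugar water and toxin cannot be told apart in a comparison of the regimen with normal diet.

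Before division, condensin compacts each chromosome, and the kinetochore, a protein plate built on the centromere, binds the tips of spindle microtubules. The spindle checkpoint holds the cell until every kinetochore is attached. Then Cdc20 and the anaphase-promoting complex release separase, which cuts the cohesin rings between sister chromatids, and the central spindle and a contractile ring divide the cell. Transcripts of most of these genes are made late in the cell cycle and are scarce in resting cells, and hepatocytes of an adult liver seldom divide unless the liver is injured or loses tissue.

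Library totals were 31298299 to 56010646 counts. Levels are given in CPM, counts per library size with TMM scaling within a batch, and the batches were scaled apart, so their CPM values are not set against each other. A gene rose or fell where its adjusted p in the quasi-likelihood test of edgeR, with Benjamini-Hochberg adjustment over all genes, was under 0.05, and log2 fold changes are given ± SE. Nothing beyond the labels says that the libraries of a group came from different animals, so p-values measure the spread between these samples. In whole tissue, fewer cells of a type and less RNA per cell cannot be told apart. The hepatocyte markers were present in every library, with summed levels of 83372 to 90141 CPM in the 20% therapy livers and 112581 to 124332 CPM in the FAT-MASH livers without mannose.

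Promoters of late cell cycle genes are known for 2 short elements, the cell cycle genes homology region (CHR), a site of the MuvB complexes, and the CCAAT box, a site of NF-Y. RefSeq promoter windows on GRCm38.p6, 250 bases before to 50 after the annotated start, were found for 46 of the 55 genes, as 50 windows. The letters TTTGAA or TTCGAA on either strand stood in 38 of the 50 windows (76%), against 19.2% of all 32851 windows of the same length and 17.6% of the 21262 windows of protein-coding genes. CCAAT on either strand stood in 35 (70%), against 37.4% of all windows, and both kinds of letters in 32 (64%), against 7.53%. These are matches of letters, not measured sites. The stretches below run from 120 bases before to 30 after the start, in gene direction, for 4 genes with large rises and for the pair whose levels barely moved, and capitals mark the CHR and CCAAT letters.

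Hmmr (chr11:40733408-40733557, minus strand): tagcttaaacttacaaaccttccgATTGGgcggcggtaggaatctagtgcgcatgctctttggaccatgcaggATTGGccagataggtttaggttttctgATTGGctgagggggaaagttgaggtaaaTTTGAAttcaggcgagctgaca
Ube2c (chr2:164769809-164769958, plus strand): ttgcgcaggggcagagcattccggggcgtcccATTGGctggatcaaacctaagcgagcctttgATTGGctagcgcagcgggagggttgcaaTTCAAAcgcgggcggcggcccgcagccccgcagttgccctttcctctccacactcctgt
Cdc20 (chr4:118437314-118437463, minus strand): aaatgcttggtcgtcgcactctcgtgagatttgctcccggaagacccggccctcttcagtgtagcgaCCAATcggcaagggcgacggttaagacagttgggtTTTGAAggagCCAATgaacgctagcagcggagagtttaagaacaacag
Racgap1 (chr15:99651627-99651776, minus strand): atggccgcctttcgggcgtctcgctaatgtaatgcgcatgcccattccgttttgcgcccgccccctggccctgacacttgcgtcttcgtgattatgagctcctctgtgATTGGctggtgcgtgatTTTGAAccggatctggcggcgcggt
Pttg1 (chr11:43425952-43426101, minus strand): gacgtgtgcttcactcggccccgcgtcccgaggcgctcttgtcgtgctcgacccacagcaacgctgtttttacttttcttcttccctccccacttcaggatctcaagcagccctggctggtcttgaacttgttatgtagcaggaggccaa
Cit (chr5:115845536-115845685, plus strand): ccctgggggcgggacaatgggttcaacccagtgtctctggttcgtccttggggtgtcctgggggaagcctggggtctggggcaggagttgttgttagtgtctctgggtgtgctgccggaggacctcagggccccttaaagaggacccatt

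Hmmr, which codes for a spindle protein of the centrosome, carried 1 CHR and 3 CCAAT matches in this stretch. Ube2c and Cdc20, which act with the anaphase-promoting complex, had 1 and 2 each. Racgap1, a subunit of the central spindle complex, had 1 of each. Pttg1, which codes for securin, and Cit, which codes for citron kinase, had neither kind of letters in the stretch or in the whole window. The windows follow RefSeq starts. By the offset between builds at Hmmr, Top2a and Birc5, the Pttg1 window appears to lie inside the gene as annotated for the counts. Sequence before that annotated start of Pttg1 was not searched. Of the 9 genes whose windows held neither kind, 7 rose with 20% therapy. They were Birc5, Knstrn, Mad2l1, Melk, Ncaph, Nusap1 and Nuf2, which had the largest rise of the 55. The rest of the 9 were Pttg1 and Cit, the only genes of the 55 that did not rise. Every gene whose window held either kind thus rose. With so few genes that did not rise, whether the letters go with the rise cannot be told, and it was not tested.

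The mitotic genes rose together in the livers of FAT-MASH mice given 20% mannose, as therapy or as prevention. The fold changes over FAT-MASH were larger with therapy, but none of the 55 passed the direct test of 20% therapy over 20% prevention. With 20% therapy 53 of the 55 rose and 0 fell, with a median log2 fold change of 3.87, against FAT-MASH without mannose. Of the 19571 genes tested 10.2% rose and 11.3% fell in that comparison, and the median of all genes was 0.00. With 20% prevention 48 rose and 0 fell, with a median of 2.57, where 6.83% of all genes rose and 8.26% fell. All 3 libraries of 20% therapy lay above all 3 FAT-MASH libraries for 53 of the 55 genes (18.1% of all genes), and those of 20% prevention did so for 51 (15.9%). The 55 genes together summed to 1234, 454 and 733 CPM in the 20% therapy livers, to 408, 378 and 361 CPM in the 20% prevention livers and to 121, 138 and 135 CPM in the FAT-MASH livers without mannose. Every 20% therapy liver was above every other liver of the first batch in this sum. The 20% therapy livers were spread far wider than those of the other groups of that batch. The comparisons with FAT-MASH share its 3 libraries. All 55 genes passed the filter on low counts. Its level of 0.246 CPM in 3 libraries was reached by 55 with both 20% groups left out, and by 50 in the normal-diet and FAT-MASH livers without mannose alone, where Ndc80, Sgo1, Sgo2a, Melk and Dlgap5 stayed under it. Those 5 passed through the mannose groups, where they were higher, so counts over the 55 include genes that had to differ to be tested.

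**Figure D1:**
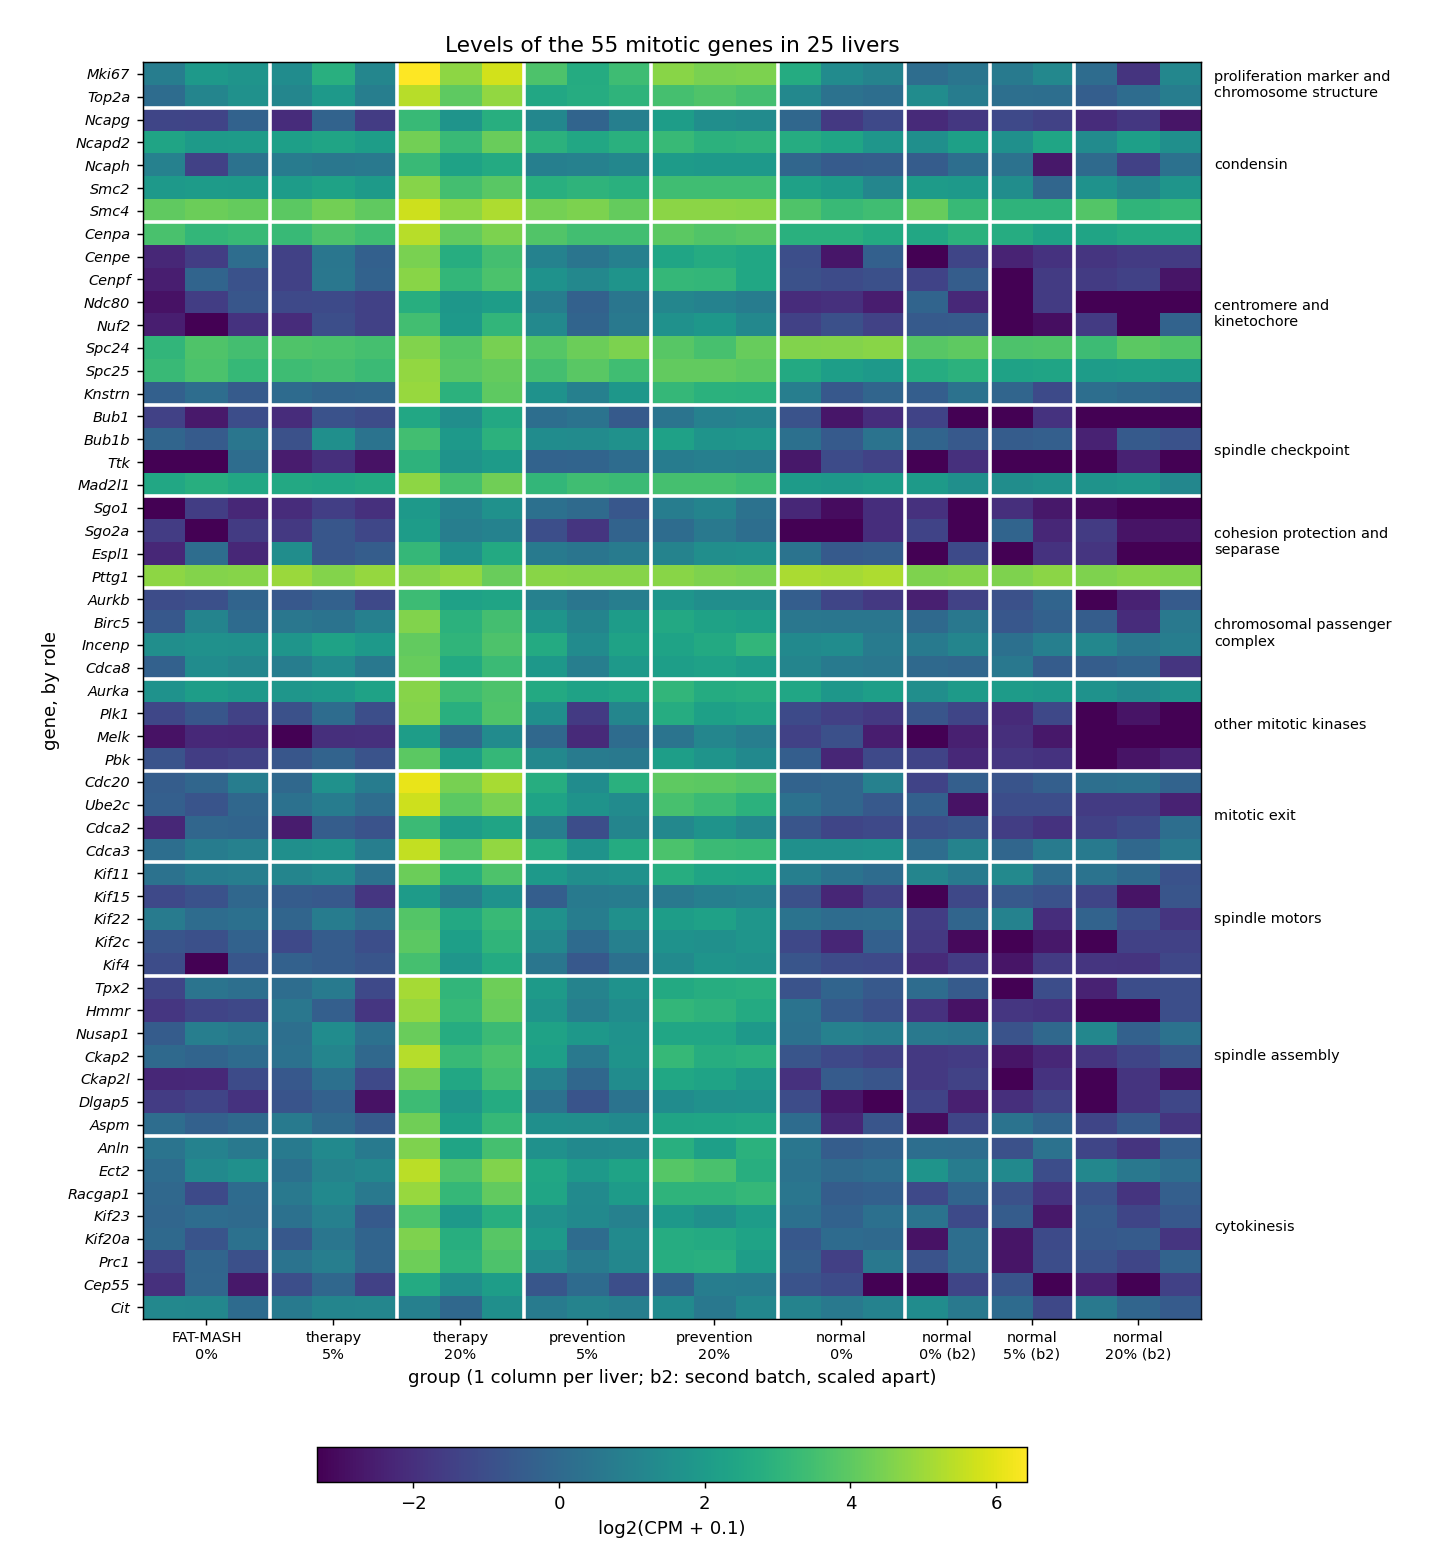
Level of each of the 55 genes (rows, by role) in each of the 25 livers (columns, by group), as log2 of CPM plus 0.1, with the second batch scaled apart. On average the columns of 20% therapy are the brightest for nearly all genes and the 20% prevention columns follow. All 3 therapy columns lie above all 3 of 20% prevention for 36 of the 55. Pttg1 and Cit keep about the same colour across the first 15 columns.

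Mki67, the classical proliferation marker, which coats mitotic chromosomes (ENSMUSG00000031004.9, chromosome 7, 135291513 to 135318090 on GRCm39), had 85.8, 27.2 and 54.7 CPM in the 20% therapy livers, 26, 22.2 and 22.6 CPM with 20% prevention and 1.64, 3.72 and 3.21 CPM in FAT-MASH livers without mannose. Neither 20% group overlapped FAT-MASH, and the therapy livers were the more widely spread. Its log2 fold change was 4.31 ± 0.51 with 20% therapy (edgeR adjusted p = 6.02e-06) and 3.07 ± 0.49 with 20% prevention (edgeR adjusted p = 0.000351). Top2a, the topoisomerase that untangles sister DNA, rose by 3.85 ± 0.40 and 2.61 ± 0.39 in the same comparisons. It had 40.9, 16 and 28.7 CPM with 20% therapy, 11.5, 13.4 and 11.3 CPM with 20% prevention and 0.992, 2.04 and 2.99 CPM without mannose.

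All 5 condensin subunits rose with 20% therapy and with 20% prevention, by a median of 2.18 and 1.49, the lowest medians of the 11 roles in both comparisons. Ncapg, a regulatory subunit of condensin I, was at 9.34, 3.19 and 6.88 CPM in 20% therapy livers and at 0.305, 0.3 and 0.732 CPM in FAT-MASH livers (3.87 ± 0.61). Smc4, a subunit of the ATPase core that condensin I and II share (ENSMUSG00000034349.15, chromosome 3, 68912071 to 68941956), had 51.7, 27.4 and 37.4 CPM with 20% therapy, 26.6, 26.4 and 26 CPM with 20% prevention and 16.5, 18.9 and 17.5 CPM without mannose. It was already well expressed without mannose and its rise was small, 1.14 ± 0.18 with 20% therapy and 0.58 ± 0.18 with 20% prevention. The prevention call of Smc4 was lost without any 1 of the 6 libraries (edgeR adjusted p 0.0559 to 0.114; 0.00133 to 0.114 over all alternatives). That of Ncapd2, another condensin I subunit (0.94 ± 0.26), was lost when 1 of 3 libraries was left out, FAT-MASH replicate 2, FAT-MASH replicate 3 or 20% prevention replicate 1 (edgeR adjusted p 0.0575 to 0.0677; 0.000393 to 0.0677 over all alternatives).

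The 8 centromere and kinetochore genes all rose with 20% therapy, over the widest range of any role, 0.84 to 6.49. Nuf2, a subunit of the Ndc80 complex that grips microtubules (ENSMUSG00000026683.15, chromosome 1, 169325503 to 169359033), had the largest rise of the 55 in both 20% groups. It was at 11, 3.65 and 8.38 CPM with 20% therapy (6.49 ± 0.64), at 2.95, 3.5 and 2.26 CPM with 20% prevention (5.09 ± 0.63) and at 0.0763, 0 and 0.169 CPM without mannose, where only 10 counts were seen over the 3 libraries. Ndc80, which gives that complex its name, was at 6.88, 3.52 and 4.19 CPM with 20% therapy and 0.0382, 0.24 and 0.507 CPM without mannose, a log2 fold change of 4.27 ± 0.56. The same complex holds Spc24 and Spc25, whose rises were the smallest of the 53, 0.84 ± 0.20 (edgeR adjusted p = 0.00503) and 0.97 ± 0.22 (edgeR adjusted p = 0.00285). Spc24 stood at 23.6, 14 and 21.2 CPM with 20% therapy and 8.47, 13.2 and 11.3 CPM without mannose, so that its libraries nearly touched. Within this 1 complex the log2 fold changes with 20% therapy thus ran between 0.84 and 6.49.

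With 20% prevention 5 of these 8 rose. Cenpa, the histone H3 variant that marks the centromere (0.53 ± 0.24, edgeR adjusted p = 0.15), Spc24 (0.44 ± 0.20, edgeR adjusted p = 0.156) and Spc25 (0.64 ± 0.22, edgeR adjusted p = 0.0513) did not pass. The Spc25 result lies on the threshold and was past it in 9 alternatives, among them the one without FAT-MASH replicate 2 (0.79, edgeR adjusted p = 0.0453; 0.00462 to 0.156 over all alternatives). Knstrn, a kinetochore and spindle pole protein, rose by 3.35 ± 0.45 with 20% prevention and by 4.56 ± 0.46 with 20% therapy, at 30.5, 7.49 and 16.1 CPM in therapy livers against 0.687, 1.02 and 0.592 CPM without mannose.

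The 4 checkpoint genes rose with 20% therapy. Bub1b, which codes for the checkpoint protein BubR1, had 11.1, 3.65 and 7.53 CPM with 20% therapy and 0.801, 0.599 and 1.32 CPM without mannose (3.03 ± 0.51). Mad2l1, which codes for the Mad2 protein that holds Cdc20 back, had 26.8, 11.5 and 20.0 CPM against 5.65, 6.77 and 5.69 CPM, a rise of 1.69 ± 0.22 with no overlap. With 20% prevention 3 of the 4 rose, Mad2l1 by 0.88 ± 0.21. Ttk, the kinase that starts checkpoint signalling, did not pass there (2.34 ± 0.89, edgeR adjusted p = 0.0855), with 1.6, 1.75 and 1.64 CPM in 20% prevention livers and 0, 0 and 1.01 CPM in FAT-MASH livers. Only FAT-MASH replicate 3 had Ttk counts, and without that library it passed (edgeR adjusted p = 0.000133; 4.95e-05 to 0.229 over all alternatives).

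Of the 4 genes of cohesion and its release, 3 rose in both 20% groups. Espl1, which codes for separase, was at 8.83, 2.91 and 5.92 CPM with 20% therapy, 1.94, 2.71 and 2.84 CPM with 20% prevention and 0.115, 1.02 and 0.113 CPM without mannose. The rises were 3.88 ± 0.72 and 2.65 ± 0.70, and that of prevention was lost without FAT-MASH replicate 1 or 3 (edgeR adjusted p 0.0646 to 0.075; 1.84e-08 to 0.075 over all alternatives). The shugoshin genes Sgo1 and Sgo2a, which protect centromeric cohesin, had 1.91 to 3.81 and 1.69 to 4.08 CPM with 20% therapy and at most 0.24 and 0.229 CPM without mannose. The counts do not use strand, and 35.0% of the Sgo2a exon bases overlap the antisense gene Kctd18.

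Pttg1, whose product securin inhibits separase until anaphase (ENSMUSG00000020415.17, chromosome 11, 43311077 to 43317078), did not follow its partner. It had 24.6, 28.9 and 18 CPM with 20% therapy, 25.6, 23 and 22 CPM with 20% prevention and 27.2, 24.6 and 25 CPM without mannose, overlapping in every case. Its log2 fold change was -0.11 ± 0.14 with 20% therapy (edgeR adjusted p = 0.645) and -0.12 ± 0.14 with 20% prevention (edgeR adjusted p = 0.616), and both changed sign when libraries were scaled by their totals alone. In FAT-MASH livers without mannose it was the highest of the 55 per length of transcript, at 12.8 CPM per kb, and with 20% therapy it had 11.9 CPM per kb. Cdc20 then led, with 22.4 CPM per kb in 20% therapy livers, against 0.559 CPM per kb and rank 11 without mannose.

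All 4 chromosomal passenger genes, which correct faulty attachments and then guide cytokinesis, rose in both 20% groups, by medians of 3.14 with therapy and 1.71 with prevention. Aurkb, the kinase of the complex (ENSMUSG00000020897.13, chromosome 11, 68936473 to 68942490), had 10.2, 4.69 and 5.09 CPM with 20% therapy, 3.29, 2.74 and 2.73 CPM with 20% prevention and 0.382, 0.42 and 0.789 CPM without mannose. The 3 groups did not overlap, and the rises were 3.66 ± 0.43 and 2.47 ± 0.42. Birc5, which codes for survivin, the subunit that brings the complex to centromeres, rose by 3.65 ± 0.44 with 20% therapy, where it had 24, 7.55 and 11.4 CPM against 0.534, 2.01 and 0.958 CPM.

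The other 4 kinases all rose with both 20% doses. Plk1, a kinase that acts from mitotic entry to cytokinesis (ENSMUSG00000030867.8, chromosome 7, 121758662 to 121769096), had 24.1, 6.95 and 13.3 CPM with 20% therapy, 6.48, 4.55 and 5.06 CPM with 20% prevention and 0.324, 0.509 and 0.282 CPM without mannose. It was close to silent without mannose, and its rises were 5.32 ± 0.65 and 3.86 ± 0.63. Aurka, which matures the spindle poles, was better expressed, with 24.8, 10.5 and 12.9 CPM with 20% therapy against 3.03, 4.23 and 3.52 CPM without mannose, and rose by 2.17 ± 0.27. With 20% prevention it rose by 1.00 ± 0.27, a call lost when either FAT-MASH replicate 1 or 20% prevention replicate 1 was left out (edgeR adjusted p 0.065 to 0.0746; 0.000345 to 0.0746 over all alternatives).

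The mitotic exit genes rose as a whole, 4 of 4 in each 20% group, with a median of 4.83 with therapy. Cdc20, the activator of the anaphase-promoting complex (ENSMUSG00000006398.16, chromosome 4, 118290098 to 118294549), had 68.5, 21.4 and 35.3 CPM with 20% therapy, 16, 15.5 and 13.8 CPM with 20% prevention and 0.63, 0.839 and 1.66 CPM without mannose. Ube2c, the ubiquitin-conjugating enzyme of that complex (ENSMUSG00000001403.14, chromosome 2, 164611818 to 164620742), had 51.4, 15.7 and 21.8 CPM with 20% therapy, 11.8, 9.96 and 7.57 CPM with 20% prevention and 0.668, 0.479 and 0.845 CPM without mannose. For both genes the 3 groups were apart, with rises of 5.35 ± 0.53 and 5.47 ± 0.44 with 20% therapy and of 3.88 ± 0.51 and 3.87 ± 0.42 with 20% prevention. Ube2c had the smallest edgeR adjusted p of the 55 in both comparisons, 1.47e-07 and 1.28e-05, while 22.8% of its exon bases overlap the antisense gene Tnnc2. Cdca3, a trigger of mitotic entry that the anaphase-promoting complex removes at exit, rose by 4.30 ± 0.39 with 20% therapy, at 46, 14.2 and 28.3 CPM against 1.05, 1.62 and 1.86 CPM.

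The 5 kinesin motors rose in both 20% groups, with medians of 3.10 for therapy and 1.89 for prevention. Kif11, the motor that pushes the spindle poles apart (ENSMUSG00000012443.5, chromosome 19, 37364851 to 37410307), had 18.6, 6.79 and 13 CPM with 20% therapy, 6.7, 5.03 and 4.9 CPM with 20% prevention and 1.18, 1.62 and 1.69 CPM without mannose (3.10 ± 0.35 and 1.89 ± 0.34). Kif2c, which takes microtubule ends apart to correct attachments, had 4.47 to 15.8 CPM with 20% therapy and 0.42 to 0.732 CPM without mannose.

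All 7 spindle assembly genes rose in both. Hmmr (ENSMUSG00000020330.17, chromosome 11, 40592222 to 40624249), whose promoter stretch is printed above, had 29.3, 9.03 and 17.9 CPM with 20% therapy and at most 0.338 CPM without mannose, with rises of 6.11 ± 0.59 for therapy and 4.78 ± 0.58 for prevention. Ckap2l, a spindle protein of dividing cells, came next, with 5.94 ± 0.63 and 4.58 ± 0.61. Tpx2, which activates Aurora A and seeds microtubules around chromosomes, was at 34, 8.42 and 19.2 CPM with 20% therapy and 0.305, 1.26 and 1.07 CPM without mannose, a rise of 4.59 ± 0.55. Both Hmmr and Ckap2l were under 0.4 CPM in every FAT-MASH liver without mannose, so their fold changes rest on few counts in that group.

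Of the 8 cytokinesis genes 7 rose with 20% therapy and 6 with 20% prevention. Racgap1, a subunit of the centralspindlin complex (ENSMUSG00000023015.15, chromosome 15, 99518377 to 99549537), had 29.9, 8.83 and 16.7 CPM with 20% therapy, 8.01, 7.92 and 8.99 CPM with 20% prevention and 0.878, 0.36 and 0.958 CPM without mannose (4.63 ± 0.45 and 3.48 ± 0.44). Ect2, the exchange factor that Racgap1 recruits to switch on RhoA, had 43, 12.8 and 23.6 CPM with 20% therapy and 0.992, 2.34 and 2.87 CPM without mannose (3.70 ± 0.43). Anln, the anillin of the contractile ring, rose by 3.12 ± 0.42 with therapy and 2.04 ± 0.41 with prevention. Cep55, which brings the abscission machinery to the midbody, did not pass with 20% prevention (1.97 ± 0.78, edgeR adjusted p = 0.0999), although it did without FAT-MASH replicate 2 (edgeR adjusted p = 0.0134; 0.00163 to 0.295 over all alternatives).

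Cit, the citron kinase that stabilises the midbody (ENSMUSG00000029516.20, chromosome 5, 115983337 to 116147006), was the other gene that did not pass in either 20% group. It had 1.78, 0.868 and 2.77 CPM with 20% therapy, 2.44, 1.4 and 2.17 CPM with 20% prevention and 2.25, 2.19 and 0.958 CPM without mannose. The log2 fold changes were 0.01 ± 0.38 (edgeR adjusted p = 0.995) and 0.15 ± 0.38 (edgeR adjusted p = 0.854), and each turned negative when FAT-MASH replicate 3 was left out.

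**Figure D2:**
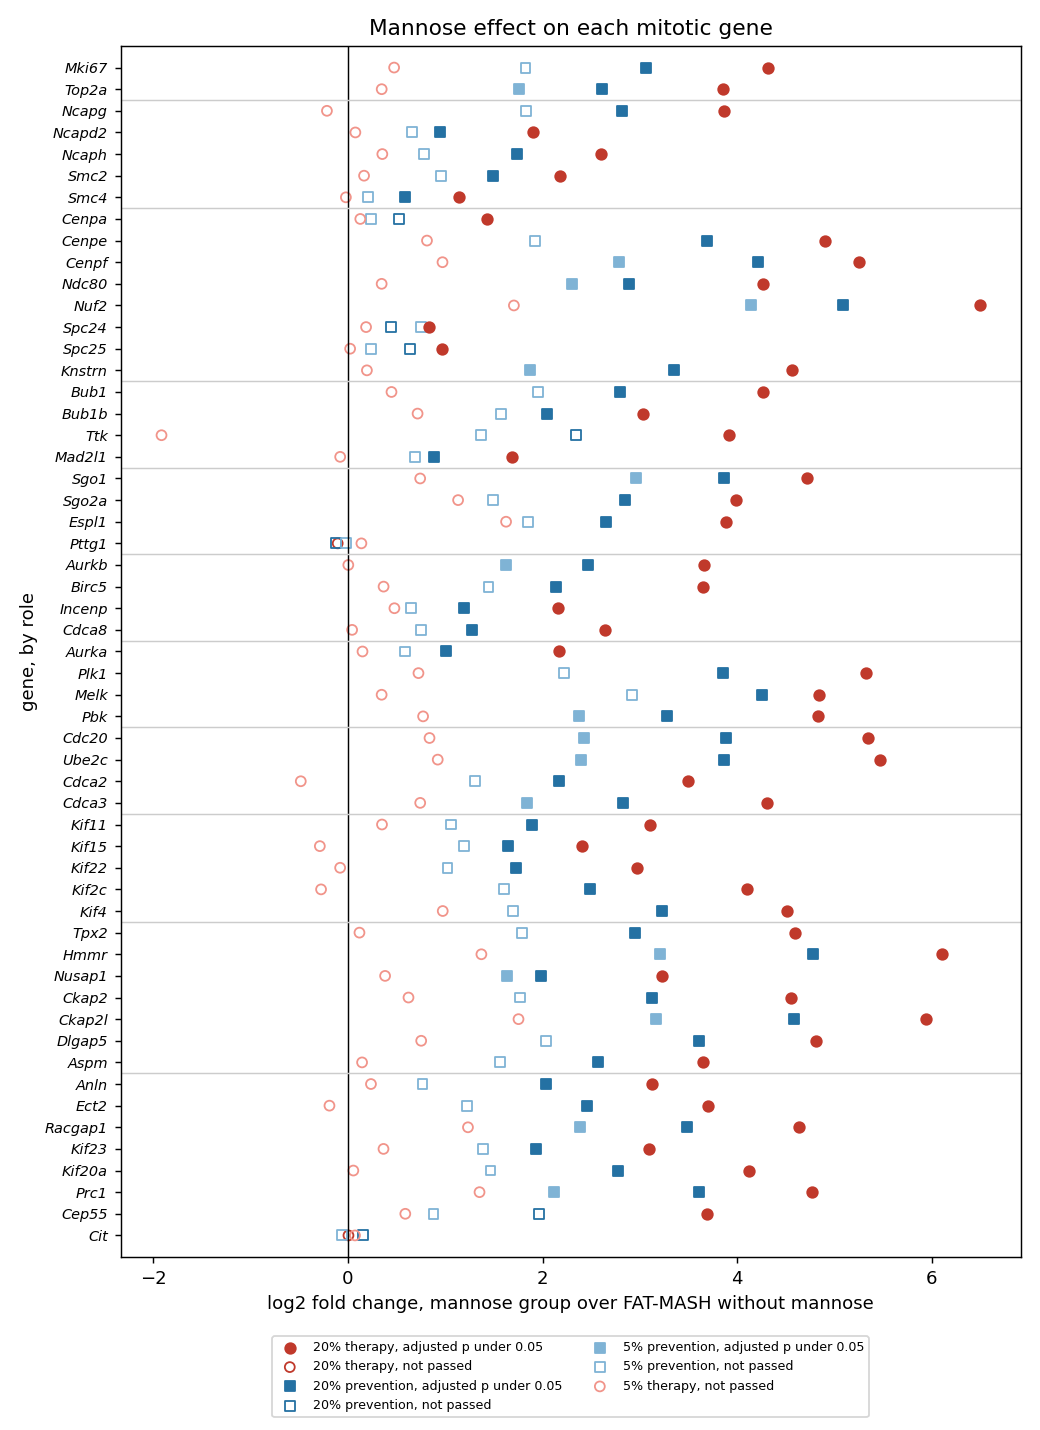
Log2 fold change of each gene in the 4 mannose groups over FAT-MASH without mannose, filled where edgeR's adjusted p was under 0.05. The red circles of 20% therapy lie to the right of the blue squares of 20% prevention for nearly every gene, 16 light blue squares of 5% prevention are filled and no circle of 5% therapy is.

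Genes with a higher level on normal diet had smaller changes. Of the 10 genes with at least 3 CPM on normal diet in the first batch (Pttg1, Spc24, Smc4, Cenpa, Ncapd2, Spc25, Aurka, Mad2l1, Mki67 and Smc2), 9 rose with 20% therapy, by a median of 1.56 over the 10, against 44 of the other 45 with a median of 4.10. With 20% prevention 6 of the 10 rose (median 0.76), against 42 of the other 45 (median 2.79). These splits are given as a description, without a test.

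At 5% mannose rises were detected under prevention and not under therapy. With 5% prevention 16 of the 55 rose and 0 fell, with a median of 1.61, where 0.966% of all genes rose and 1.31% fell. All 3 libraries lay above those of FAT-MASH for 39 genes (9.99% of all genes). With 5% therapy none of the 55 passed edgeR's test, where 0.0358% of all genes did, and 7 had an unadjusted p under 0.05. DESeq2 and voom also called 0, the median was 0.35, and the libraries were apart for 4 genes (5.34% of all genes), namely Incenp, Pbk, Ube2c and Racgap1.

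The 16 genes that rose with 5% prevention were Top2a, the kinetochore genes Cenpf, Ndc80, Nuf2 and Knstrn, the cohesion protector Sgo1, the kinases Aurkb and Pbk, the exit genes Cdc20, Ube2c and Cdca3, the spindle genes Hmmr, Nusap1 and Ckap2l, and Racgap1 and Prc1 of the central spindle. Of these 16, Ndc80 and Sgo1 passed the filter on low counts through the mannose groups, and 14 did not depend on them. No condensin subunit, checkpoint gene or motor passed. None of the 10 genes with at least 3 CPM on normal diet was among them. Calls in this comparison were sensitive to single libraries: 4 of the 55 passed without FAT-MASH replicate 1, 7 without 5% prevention replicate 1 and 9 without 5% prevention replicate 3, and 2 passed with limma voom.

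Nuf2 had the largest rise with 5% prevention (4.15 ± 0.64, edgeR adjusted p = 0.00222), with 2.28, 0.785 and 1.45 CPM against 0.0763, 0 and 0.169 CPM without mannose. Hmmr had 3.19, 1.69 and 2.6 CPM against 0.191, 0.3 and 0.338 CPM (3.20 ± 0.58, edgeR adjusted p = 0.00627). Ube2c had 4.96, 3.11 and 2.49 CPM against 0.668, 0.479 and 0.845 CPM (2.40 ± 0.42, edgeR adjusted p = 0.00545). Racgap1 rose by 2.38 ± 0.44 (edgeR adjusted p = 0.00685). These 4 stayed past the threshold without any 1 library and were lost with voom, where the adjusted p was 0.069 for Nuf2, 0.128 for Hmmr, 0.173 for Ube2c and 0.0875 for Racgap1. For none of the 4 did a 5% prevention liver reach down to the FAT-MASH livers.

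Read by dose, the group means formed a graded series under prevention and a late step under therapy. The step between 5% and 20% prevention passed edgeR's test for none of the 55, and the step between 0% and 5% prevention did not pass for Mki67. For Mki67 the livers had 1.64, 3.72 and 3.21 CPM at 0%, 13, 6.34 and 10.5 CPM at 5% prevention and 26, 22.2 and 22.6 CPM at 20% prevention. Under therapy the same gene had 2.58, 7 and 2.14 CPM at 5%, which overlaps 0%, and 85.8, 27.2 and 54.7 CPM at 20%. Cdc20 had 0.63, 0.839 and 1.66 CPM at 0%, 6.6, 2.6 and 7.26 CPM at 5% prevention and 16, 15.5 and 13.8 CPM at 20% prevention, without overlap between doses. Under therapy Cdc20 had 0.883, 2.93 and 1.61 CPM at 5% and 68.5, 21.4 and 35.3 CPM at 20%, so that the higher dose alone stood apart. The mean of 20% therapy was the highest of the 4 mannose groups, followed by 20% prevention, 5% prevention and 5% therapy, for 52 of the 55 genes.

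**Figure D3:**
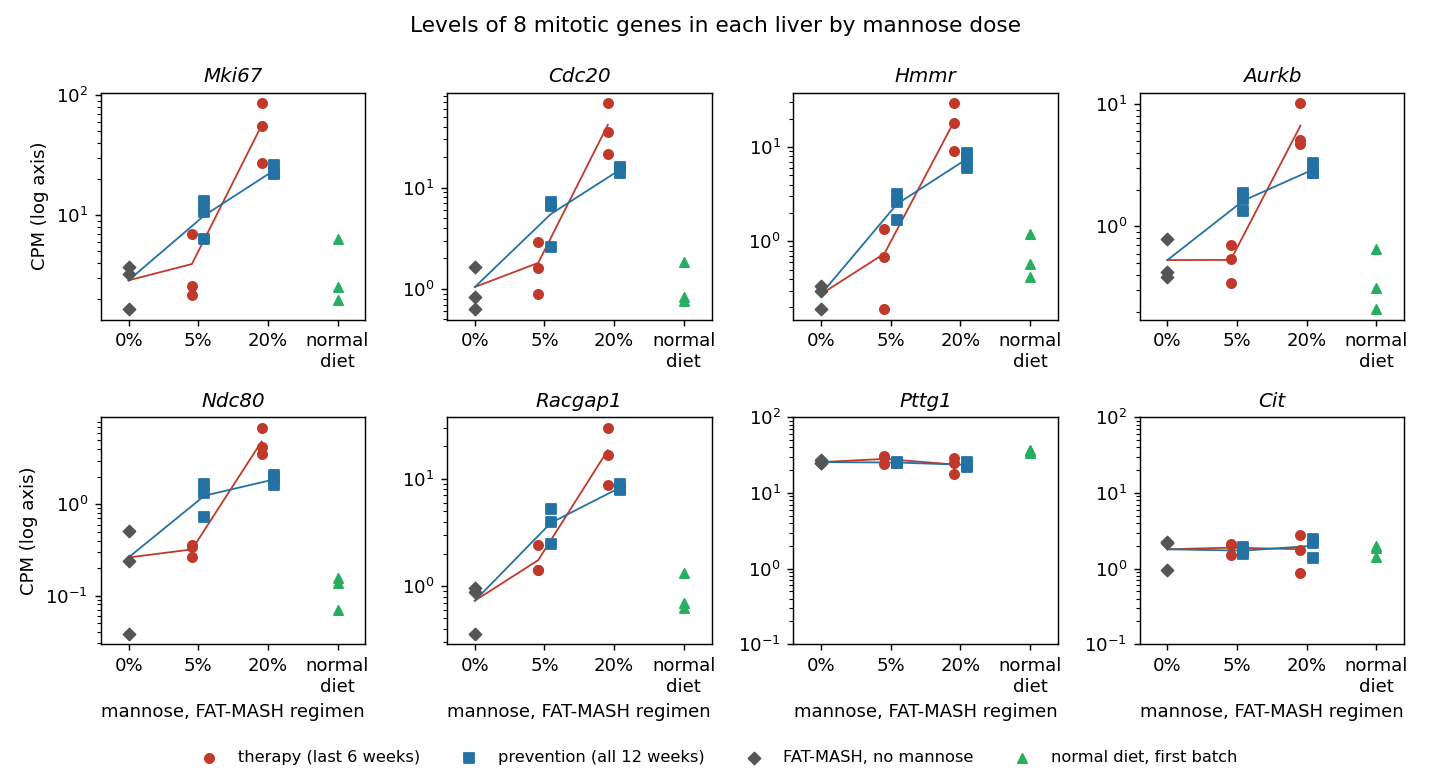
Levels in CPM, on a log axis, of 8 genes in each liver, by mannose dose under therapy (red circles) and prevention (blue squares), with FAT-MASH at 0% (grey diamonds), normal diet of the first batch (green triangles) and lines through the group means. In 6 panels the levels climb to 20%, steeply under therapy after a near flat start, whereas Pttg1 and Cit stay level.

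Within therapy, 53 of the 55 rose at 20% over 5%, with a median of 3.51 (8.33% of all genes rose and 9.33% fell), and the exceptions were again Pttg1 and Cit. All 3 libraries of the higher dose were above all 3 of the lower for 53 genes (15.9% of all genes). Plk1 rose by 4.59 ± 0.62, Ube2c by 4.54 ± 0.41 and Mki67 by 3.84 ± 0.50. Within prevention none passed edgeR's test at 20% over 5%, where 0.445% of all genes did, although 27 had an unadjusted p under 0.05, and DESeq2 called 6 and voom 0. The median was 0.90, and the libraries of 20% were all above those of 5% for 42 genes (9.64% of all genes).

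The dose step itself differed between schedules for 29 of the 55 genes, all with the larger step under therapy (1% of all genes in that direction and 1.16% in the other), by a median of 2.50 on the log2 scale. This interaction uses the 4 mannose groups and not the FAT-MASH livers without mannose. The difference of steps was 3.08 ± 0.53 for Ube2c (edgeR adjusted p = 0.00677), 3.85 ± 0.71 for Nuf2 (edgeR adjusted p = 0.0118), 2.57 ± 0.48 for Cdca3 (edgeR adjusted p = 0.0127) and 1.57 ± 0.30 for Mad2l1 (edgeR adjusted p = 0.0133). Behind the last value, Mad2l1 had 26.8, 11.5 and 20.0 CPM at 20% therapy and 5.77, 5.41 and 5.93 CPM at 5% therapy, and 11.6, 11.7 and 10.1 CPM at 20% prevention and 8.6, 10.7 and 9.83 CPM at 5% prevention. Only the therapy doses were apart. Those 4 genes passed in each alternative run. The count was 4 without 20% therapy replicate 1, 5 without 5% prevention replicate 1, 12 without 20% prevention replicate 1, 14 and 15 without 5% therapy replicate 1 and 3, 16 without 5% prevention replicate 3 and 18 without 20% prevention replicate 2, and was 15 with all 25 libraries and a batch term.

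**Figure D4:**
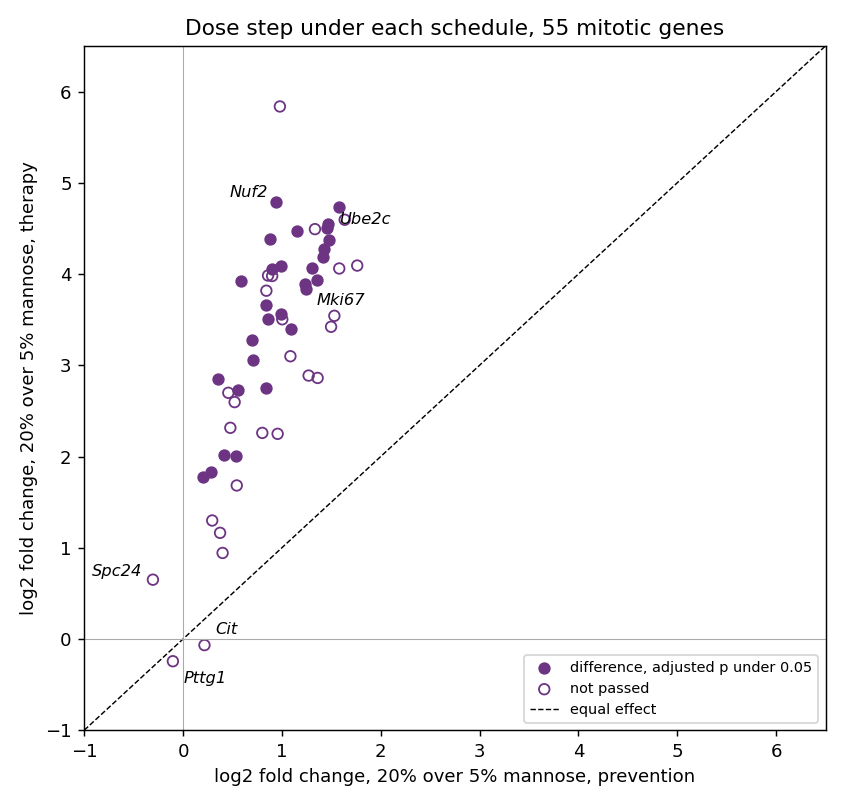
Log2 fold change of 20% over 5% mannose for each of the 55 genes, under prevention (x axis) and under therapy (y axis), with the dashed line of equal steps and filled points where the difference of steps had an adjusted p under 0.05. All 29 filled points lie above the line, and Pttg1 and Cit lie below it near the origin.

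Compared at the same dose, the schedules did not separate in edgeR's test for any of the 55. At 20%, therapy over prevention had a median of 1.21, 0 genes passed (0.0818% of all genes did), 43 had an unadjusted p under 0.05, and DESeq2 called 16 and voom 33. The 3 therapy libraries lay above the 3 prevention libraries for 36 genes (8.45% of all genes). Without 20% therapy replicate 2, 15 passed. At 5%, therapy over prevention had a median of -1.15, 0 passed (0.194% of all genes did), 37 had an unadjusted p under 0.05, and DESeq2 called 12 and voom 0. The 5% therapy libraries lay below those of 5% prevention for 30 genes (8.24% of all genes), and the count passing was 1 without 5% prevention replicate 2 and 3 without 5% therapy replicate 2.

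The 3 livers of 20% therapy differed from each other in 1 common direction. Replicate 1 was the highest of the 3 for 52 of the 55 genes and replicate 2 the lowest for 54. The level in replicate 1 was a median 2.92 times that in replicate 2 (0.851 to 4.86) and 1.67 times that in replicate 3 (0.644 to 3.16). The count of 53 genes over FAT-MASH was the same without any 1 of the 6 libraries. By group, markers of bile duct cells rose where the mitotic genes did. Of 10 cholangiocyte markers 7 rose with 20% therapy, 6 with 20% prevention, 1 with 5% prevention and 0 with 5% therapy. Among them were Tspan8 (2.83 ± 0.40), Epcam (2.79 ± 0.48) and Spp1 (2.38 ± 0.44) in 20% therapy. Their summed level was 618, 196 and 832 CPM in the 20% therapy livers, 243 to 593 CPM with 20% prevention, 208 to 328 CPM with 5% prevention, 116 to 167 CPM with 5% therapy and 128 to 146 CPM without mannose. The group means of this sum had the same order as those of the mitotic genes, 549 CPM with 20% therapy, 364 CPM with 20% prevention, 285 CPM with 5% prevention and 139 CPM with 5% therapy. Among the 20% therapy livers replicate 2 was the lowest in both sums, while replicate 1 was the highest in mitotic genes and replicate 3 in these markers. Liver by liver the 2 sums did not keep the same order. The 196 CPM of replicate 2 in these markers lay below every prevention liver, while its mitotic sum of 454 CPM lay above them all. Cftr had 0 counts in 4 of the 25 libraries, and no other marker of this list was at 0 in any. In these comparisons 10.2% of all genes rose and 11.3% fell with 20% therapy, and 6.83% and 8.26% with 20% prevention. Over the same libraries 7 of 10 hepatocyte markers fell with 20% therapy and 5 with 20% prevention, and 4 of 9 erythroid markers tested fell and 1 rose with 20% therapy, 3 and 1 with 20% prevention. The erythroid sum was 337 to 578 CPM with 20% therapy, 370 to 581 CPM with 20% prevention and 632 to 725 CPM without mannose. With 20% therapy 1 of 10 macrophage markers rose, near the share over all genes. Of 10 stellate cell markers 2 rose and of 10 endothelial markers 2 fell. None of the 10 T and NK cell or 7 B cell markers tested changed. For 20% over 5% therapy, 5 of 10 stellate cell and 4 of 6 neutrophil markers rose and 0 of either fell, where 8.33% of all genes rose. Of 6 neutrophil markers tested 3 rose with 20% therapy, where their summed level was 26 to 37.9 CPM, against 16.9 to 19.4 CPM without mannose, and Ly6g, a defining one, had 0 counts in 17 of the 25 libraries. The part of these cell types in the mitotic rise was not tested.

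Few changes of the mitotic genes were detected with the regimen itself. In FAT-MASH livers without mannose 32 of the 55 had a mean under 1 CPM, which limits what could be detected. Against normal diet, FAT-MASH without mannose had 2 of the 55 higher (7.81% of all genes rose) and 2 lower (5.92% of all genes fell), with a median of 0.13. Without normal diet replicate 3 the 4 calls were 2. The FAT-MASH libraries lay above the normal-diet ones for 6 genes (17.7% of all genes) and below them for 5 (15.1%). The partners Spc24 and Spc25 went in opposite directions. Spc24 fell to 8.47, 13.2 and 11.3 CPM in FAT-MASH livers, against 23.8, 24.6 and 25.7 CPM on normal diet (-1.17 ± 0.20, edgeR adjusted p = 0.000651), while Spc25 rose to 9.75, 12.5 and 9.24 CPM, against 5.95, 4.26 and 3.78 CPM (1.17 ± 0.22, edgeR adjusted p = 0.00158). Neither pair of groups overlapped.

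Smc4 rose to 16.5, 18.9 and 17.5 CPM in FAT-MASH livers, against 13.4, 9.53 and 10.8 CPM on normal diet (0.65 ± 0.18, edgeR adjusted p = 0.0224). Pttg1 fell to 27.2, 24.6 and 25 CPM, against 35.9, 34.3 and 37.2 CPM (-0.48 ± 0.14, edgeR adjusted p = 0.0218). Each of these calls was lost without 4 of the 6 libraries, with edgeR adjusted p 0.0598 to 0.116 for Smc4 with replicates 2 and 3 of each group as those libraries (0.000662 to 0.116 over all alternatives) and 0.0524 to 0.0681 for Pttg1 with FAT-MASH replicates 2 and 3 and normal diet replicates 1 and 3 (0.00626 to 0.0681 over all alternatives). In the second batch, whose CPM is on its own scale, normal-diet livers without mannose had 14.7 and 15.8 CPM of Spc24 and 23.1 and 24.3 CPM of Pttg1. Mki67 did not pass, at 1.64, 3.72 and 3.21 CPM in FAT-MASH livers and 6.27, 2.51 and 1.96 CPM on normal diet.

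On normal diet mannose gave no rise in the mitotic genes that could be detected. Of the 55, 46 had enough counts to be tested in the second batch, and Ndc80, Bub1, Ttk, Sgo1, Espl1, Melk, Pbk, Hmmr and Ckap2l did not. Of the 46, 0 passed edgeR's test at 20% mannose over none (0.00542% of all genes did), 0 at 5% over none (0%) and 0 at 20% over 5% (0%). An unadjusted p was under 0.05 for 2, 4 and 0 of them in these comparisons, and DESeq2 and voom called 0 in each. The medians were -0.28 for 20% over none and -0.35 for 5% over none, both below 0. The 55 genes summed to 91.1, 87.8 and 92.5 CPM with 20% mannose, to 91.9 and 90.2 CPM with 5% and to 111 and 109 CPM without. Bub1, Ndc80 and Melk had 0 counts in all 3 livers with 20% mannose. With 2 or 3 livers a group and levels of about 1 CPM or less for most of the genes, small changes could not be detected at this depth.

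The effect of 20% mannose over 12 weeks was larger on the regimen than on normal diet for 25 of the 55 genes and smaller for 0 (2.26% of all genes were larger and 3.41% smaller), with a median difference of 2.94, in the fit of all 25 libraries with a batch term. Of the 25, 6 (Bub1, Ckap2l, Melk, Ndc80, Pbk and Sgo1) had too few counts to be tested within the second batch and entered this fit through the regimen groups, where they were higher, so their calls are no support. The other 19 were among the 46 genes tested on both diets. Top2a differed by 3.53 ± 0.59 (edgeR adjusted p = 0.000868), with 11.5, 13.4 and 11.3 CPM at 20% prevention and 0.992, 2.04 and 2.99 CPM without mannose on the regimen, and 0.654, 0.977 and 1.68 CPM at 20% and 2.58 and 1.62 CPM without mannose on normal diet. Racgap1 differed by 3.87 ± 0.74 (edgeR adjusted p = 0.00285), with 0.451, 0.178 and 0.679 CPM at 20% and 0.347 and 0.788 CPM without mannose on normal diet. Kif11 differed by 2.94 ± 0.57. The mannose effects of the diets were measured in different batches, joined only by the 5 normal-diet livers without mannose. With voom 6 of the 55 passed, and Racgap1 was not among them (voom adjusted p = 0.142).

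Other genes of the division pathway, from lists outside the 55, rose in part. Beside the counts that follow, 10.2% of all genes rose and 11.3% fell with 20% therapy over FAT-MASH, and counts near those shares say nothing particular of a list. With 20% therapy 17 of 33 other kinetochore and centromere genes rose and 0 fell, with Knl1, the scaffold that carries the checkpoint proteins, at 4.68 ± 0.53 and Ska3, a microtubule-binding subunit, at 4.75 ± 0.58. Of 25 other spindle and centrosome genes 17 rose and 0 fell, among them the kinesin Kif20b (3.49 ± 0.35). Of 12 mitotic cyclins, kinases and their regulators 9 rose and 0 fell, with Cdk1 at 2.63 ± 0.27 and Ccnb2 at 4.43 ± 0.48. In contrast 4 of 13 other condensin and cohesin genes rose and 1 fell, with the sororin gene Cdca5 at 3.86 ± 0.56, Ncapg2 at 1.10 ± 0.29, Rad21 at 0.37 ± 0.12, Ncaph2 at 0.37 ± 0.08 and Stag2 at -0.40 ± 0.12. Of 17 subunits and regulators of the anaphase-promoting complex 3 rose and 1 fell, Ube2s by 1.23 ± 0.32, Anapc4 by 0.46 ± 0.13, Cdc27 by 0.42 ± 0.12 and Anapc13 by -0.47 ± 0.11. Of 18 other cytokinesis and abscission genes 8 rose and 0 fell, among them Chmp4c (1.38 ± 0.19), an abscission checkpoint subunit, and Rhoc (1.10 ± 0.13).

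With 20% prevention, where 6.83% of all genes rose and 8.26% fell, these lists had 7 higher and 1 lower of the 33 kinetochore genes, 14 and 0 of the 25 spindle genes, 8 and 1 of the 12 cyclin and kinase genes, 1 and 0 of the 13 condensin and cohesin genes, 1 and 3 of the 17 genes of the anaphase-promoting complex and 6 and 0 of the 18 cytokinesis genes. With 5% prevention, where 0.966% of all genes rose, the counts higher were 1, 4, 4, 1, 0 and 0 in the same order. With 5% therapy all were 0. Of 18 transcription factors that drive or restrain these promoters 7 rose with 20% therapy and 0 fell, among them Foxm1 (4.11 ± 0.59), the activator that binds CHR promoters with MuvB, E2f1 (0.91 ± 0.23) and the pocket protein gene Rbl1 (1.29 ± 0.27). With 20% prevention 2 of the 18 rose, and 0 with either 5% dose.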

How the data were processed

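The authors deposited whole-number counts of reads per gene for 25 mouse livers. Per the submitters' processing notes, reads were aligned with STAR to GRCm39 and counted with featureCounts 2.0.6; per the file headers, the counts came from featureCounts 2.0.1 with the GENCODE M31 annotation, without strand, pair or multi-mapping options. Between 63.0% and 69.7% of the nonzero counts per library were even, as when both mates of a pair are counted, so 1 fragment usually gives 2 counts. Reads of overlapping genes on opposite strands cannot be told apart.

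The deposited counts were tested with edgeR 4.0.16 (R 4.3.3), quasi-likelihood with TMM scaling, the default low-count filter (minimum count 10) and Benjamini-Hochberg adjustment over all genes tested, at 0.05. The first batch gave 18 libraries and 19571 genes, and the second 7 libraries and 18462 genes. The interaction of diet and mannose used all 25 libraries with a batch term and 21373 genes. SE is the fold change divided by the square root of F. Levels per kb used the deposited exon lengths. Library totals ran between 31298299 and 56010646 counts, and small counts limit the precision of genes under 1 CPM.

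The 55 genes, their roles, the other gene lists and the tests were chosen with earlier results of these data known. The genes named are representatives of each role, those past the threshold with the largest and smallest changes, and those that did not pass; the stretches printed were chosen after their values were seen. Same-numbered replicates of the first batch did not deviate together (correlations -0.16 to 0.18), so replicate numbers were not used as pairs. Alternatives were DESeq2 1.42.0, RLE scaling, library totals, no filter, limma 3.58.1 voom with quality weights, other sets of libraries, a replicate block and leaving out each library. The scripts were tested on simulated data. Promoter windows came from RefSeq on GRCm38.p6.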

Additional observations from a re-analysis of the deposited data

Results flagged for a closer look

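The step between 20% and 5% mannose differed between therapy and prevention for 29 of the 55 mitotic genes, by the interaction term of the quasi-likelihood test of edgeR with Benjamini-Hochberg adjustment. The 5 genes with the smallest adjusted p were Ube2c (log2 difference of effects 3.08), Nuf2 (3.85), Cdca3 (2.57), Mad2l1 (1.57) and Kif2c (3.50). All 29 had the larger step under therapy. Kif2c no longer passed without 5% prevention replicate 1 or 20% therapy replicate 1, while the other 4 passed in each alternative run.

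The effect of 20% mannose over 12 weeks differed between the FAT-MASH regimen and normal diet for 25 of the 55 genes by the interaction term of the same test, 19 of them among the 46 genes with enough counts to be tested on normal diet. The 5 with the smallest adjusted p were Top2a (log2 difference of effects 3.53), Ube2c (4.88), Cdca3 (3.04), Racgap1 (3.87) and Knstrn (3.36). Of these only Top2a passed in each alternative run. Ube2c, Cdca3, Racgap1 and Knstrn were lost with voom (voom adjusted p 0.395, 0.115, 0.142 and 0.188). The value of Ube2c rests on 1 library: without normal diet replicate 4 it was 1.75, with an edgeR adjusted p of 0.642 (3.55e-18 to 0.642 over all alternatives). Ube2c had 0.225, 0.222 and 0.0906 CPM with 20% mannose on normal diet and 0.695 and 0.0394 CPM without, in replicates 4 and 5. No explanation of these differences was tested.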

How the results depend on the processing

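The counts of mitotic genes past the threshold were stable for 20% therapy over FAT-MASH, with 53 in each alternative, for 20% over 5% therapy (51 to 53, and 50 to 54 leaving out 1 library) and for 20% prevention over FAT-MASH (48; 44 to 52, and 42 to 46 leaving out 1 library). The normal-diet mannose comparisons gave 0 in each alternative. Other counts moved. DESeq2 called 7 for FAT-MASH over normal diet (against 4), 33 for 5% prevention over FAT-MASH (against 16), and, where edgeR called 0, 6 for 20% over 5% prevention, 12 for 5% therapy over 5% prevention and 16 for 20% therapy over 20% prevention. Without the low-count filter the counts in those comparisons were 11, 40, 21, 33 and 40, with 6 for 5% therapy over FAT-MASH, 48 for the interaction of dose and schedule (against 29) and 42 for that of diet and mannose (against 25). Voom called 2 for 5% prevention, 33 for 20% therapy over 20% prevention and 6 for diet and mannose. Fitting only the groups compared gave 1 for 20% over 5% prevention, scaling by library totals gave 5 for 20% therapy over 20% prevention, and all 25 libraries with a batch term gave 15 for dose and schedule.

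Leaving out 1 library at a time, the counts were 2 to 4 for FAT-MASH over normal diet (2 without normal diet replicate 3), 4 to 18 for 5% prevention, 0 to 0 for 5% therapy over FAT-MASH and for 20% over 5% prevention, 0 to 3 for 5% therapy over 5% prevention, 0 to 15 for 20% therapy over 20% prevention, 4 to 37 for dose and schedule (4 without 20% therapy replicate 1) and 17 to 27 for diet and mannose. Library totals shifted the median of all genes to 0.30 with 20% therapy and 0.20 with 20% prevention. Pttg1 then had 0.19 with 20% therapy and 0.058 with 20% prevention. Leaving out 1 library, Pttg1 with 20% therapy lay between -0.26 and 0.068 (above 0 without 20% therapy replicate 3). Cit with 20% therapy had -0.047 with the replicate block and lay between -0.44 (without 20% therapy replicate 3) and 0.34 leaving out 1 library, with -0.29 without FAT-MASH replicate 3. Cit with 20% prevention lay between -0.15 (without FAT-MASH replicate 3) and 0.35, with -0.01 without 20% prevention replicate 1. The causes were not tested.

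With replicate numbers as a block the counts were 12 for 5% prevention over FAT-MASH and 22 for dose and schedule, and 4, 48, 53, 53 and 0 for FAT-MASH over normal diet, 20% prevention, 20% therapy, 20% over 5% therapy and 20% over 5% mannose on normal diet. Of 45 same-numbered pairs in the first batch 1 correlated above 0.1, and the second batch had 2 pairs, at 0.04 each. Over 145 single-gene results and 2246 checks, 1992 kept direction and side of the threshold, 228 lost the call, 18 gained it and 8 changed sign. The mean was under 1 CPM for 8 of the 55 genes with 5% prevention, 24 with 5% therapy and 32 in FAT-MASH livers without mannose, where few counts limit what could be detected.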

Other observations

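Genes of DNA replication, which act before mitosis, were higher with 20% mannose as well. Of 22 replication genes 18 rose with 20% therapy over FAT-MASH and 0 fell, among them Uhrf1, which keeps DNA methylation through replication (3.31 ± 0.35), and the helicase subunits Mcm6 (1.90 ± 0.20) and Mcm3 (1.83 ± 0.21), with a list median of 1.26 against 0.00 for all genes and 10.2% of all genes rising. With 20% prevention 9 rose and 1 fell, where 6.83% of all genes rose and 8.26% fell. With 5% prevention 4 rose (0.966% of all genes) and with 5% therapy 0 did. The dose step was larger under therapy for 8 of the 22 (1% of all genes). On normal diet 0 of the list passed at 20% mannose over none.

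Of 12 genes that restrain the cell cycle, 4 rose and 2 fell with 20% therapy, where 10.2% of all genes rose and 11.3% fell. Gadd45a (1.64 ± 0.30), Btg2 (1.43 ± 0.32) and Gadd45b (1.20 ± 0.27), which respond to stress and DNA damage, and Cdkn2b (2.25 ± 0.60), which codes for the CDK inhibitor p15, were higher. Cdkn1c, which codes for the CDK inhibitor p57 (-1.77 ± 0.40), and Btg1 (-0.41 ± 0.11) were lower. With 20% prevention 2 rose and 2 fell, where 6.83% of all genes rose and 8.26% fell. In a list of 12, the 2 that fell with therapy and the counts with prevention lie near those shares.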
